A study of Oryctolagus cuniculus with 24 samples.

Results

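The genes described here encode the signalling machinery of the T cell receptor: the invariant chains CD3D, CD3E, CD3G and CD247, the coreceptors CD4 and CD8A, the surface receptors CD2 and CD5, and the kinases LCK and ZAP70. They were chosen by name and by no measured value. A probe was matched to 7 of the 10 genes, with 15 probes in all, among 28872 genes measured on the array, and CD3D, CD3E and CD3G were matched to none. Peripheral blood mononuclear cells (PBMCs) came from the heparinized blood of 4 adult New Zealand White does, which carry the labels 1, 2, 4 and 5, and were separated on a density gradient. Cells of each rabbit were given buffer alone (mock), lipopolysaccharide (LPS) at 1 µg/mL, or phorbol myristate acetate (PMA) at 10 ng/mL with ionomycin at 1 µg/mL, and RNA was taken after 4 h (T4) or 24 h (T24). This gave 6 groups of 4 arrays, 24 one-colour Agilent arrays in all. The cells were unsorted, so each level is an average over T cells and every other cell in the culture, and fewer T cells cannot be told apart from less RNA per T cell.

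When the T cell receptor binds its ligand, LCK, which is bound by the tails of CD4 and CD8, phosphorylates the tails of the CD3 chains and of the CD247 (zeta) homodimer. ZAP70 docks on the phosphorylated chains and passes the signal on to adaptors such as LAT and SLP-76 (LCP2), and from there to phospholipase C gamma, calcium and protein kinase C. CD2 is an adhesion and costimulatory receptor, and CD5 is a receptor that damps the signal and is known to be raised by it. PMA activates protein kinase C and ionomycin lets calcium in, so this pair enters the pathway below the receptor and its kinases, whereas LPS is sensed mainly by monocytes and other cells that carry its receptor TLR4.

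Each probe was a DNA strand of 60 bases. CD4 was read by a pair of neighbouring probes, shown because the CD4 result rests on the first of them, while the other had no signal above background. The capitals mark the 10 bases that end the probe of the array design and begin the probe that the study added.
CD4, array design: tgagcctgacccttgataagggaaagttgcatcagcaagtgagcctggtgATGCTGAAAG
CD4, added: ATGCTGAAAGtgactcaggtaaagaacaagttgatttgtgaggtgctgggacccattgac
The first of these lies on the forward strand at chr8:32837741-32837800 of the rabbit assembly oryCun2, according to the array design. CD2 was read by 5 overlapping probes on the reverse strand within chr13:47555725-47555794, and the capitals below mark the 50 bases that all 5 share.
CD2, 1 of 5: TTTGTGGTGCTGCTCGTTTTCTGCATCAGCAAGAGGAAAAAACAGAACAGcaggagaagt
CD8A (chr2:99593435-99593494, forward strand), ZAP70 (chr2:94412115-94412174, reverse strand) and LCK (no position given) were each read by 1 probe, shown here whole because the value of each gene rests on it alone.
CD8A: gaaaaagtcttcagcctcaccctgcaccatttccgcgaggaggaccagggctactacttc
ZAP70: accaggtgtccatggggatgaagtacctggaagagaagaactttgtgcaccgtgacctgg
LCK: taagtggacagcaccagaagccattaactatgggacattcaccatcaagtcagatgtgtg
CD247 was read by 5 overlapping probes within chr13:25538368-25538433 on the forward strand, which share 54 bases, and CD5 by 1 probe without a given position. Overlapping probes read the same stretch of RNA, so they are not separate measurements of a gene.

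A level below is the log2 median signal of a spot minus the median over the array, averaged over the spots and probes of a gene, so that 0 is the middle of the array. Between 51.4% and 62.3% of the spots of an array were well above background by the scanner's test, and 1 spot over all arrays was saturated. Levels of different genes come from different probes and are not set against each other. A gene is called differentially expressed (DE) at a Benjamini-Hochberg adjusted p below 0.05 over all genes in limma, and a fold change (FC) is given with its standard error (SE).

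Markers of the other cells in the culture differed between the groups, and their part in the results below was not tested. The T cell list (8 of 12 genes measured; BCL11B was above background on 0 arrays) holds CD247, CD2 and CD5 themselves and is not independent of them. Its summed level lay between 2.82 and 3.69 in mock-stimulated PBMCs at T24 and between 3.32 and 3.90 after PMA-Ionomycin, while that of the monocyte list (9 of 12 measured) lay between 8.48 and 9.77 and between 5.96 and 6.91. At T24, PMA-Ionomycin down-regulated 7 of the 9 monocyte genes, such as CD14 (log2 FC −3.27) and CYBB (−4.81), and 4 of 7 B cell genes, and up-regulated 1 B cell gene, BLK (1.75), and 1 of 4 platelet genes, TUBB1 (1.21). Of the 5 neutrophil genes measured it down-regulated 3 at T24, with a summed level from 10.05 to 10.87. LPS at T24 down-regulated 2 of these 5, MPO (−1.63) and CAMP (−1.92). The summed level of the list was 12.2 to 12.6 (mean 12.3) after LPS, not lower than in mock-stimulated PBMCs at T24 (8.89 to 12.3, mean 11.1). The LPS response of MPO was lower at T24 than at T4 (−1.56). At T4, PMA-Ionomycin down-regulated 3 of the 9 monocyte genes, CD14 (−3.01), CSF1R (−1.45) and CYBB (−2.12). In the same comparison 4 of 7 B cell genes, such as CD79B (−3.93) and BLNK (−3.07), and 3 of 4 platelet genes were down-regulated, and 1 B cell gene was up-regulated. From T4 to T24 without stimulation, 5 of the 9 monocyte genes and 4 of 5 neutrophil genes were up-regulated and 3 of 4 platelet genes were down-regulated. The summed platelet level went from between 5.38 and 6.64 to between 1.89 and 2.63, and that of the neutrophil list from between 7.45 and 8.21 to between 8.89 and 12.3. Of the natural killer cell list only PRF1 (perforin) was measured. It was lower after PMA-Ionomycin at T4 (log2 FC −0.76, adjusted p = 0.0328) and higher at T24 (0.96, adjusted p = 0.0044), a change in response of 1.72 (adjusted p = 0.00091). Of the erythrocyte list 4 of 6 genes were measured, with summed levels from 1.78 to 2.54 over all groups.

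Of the 7 genes, PMA-Ionomycin changed 3 at T24: CD5 was up-regulated, and CD4 and CD247 were down-regulated. Over all genes, 22.1% were up-regulated and 11.5% down-regulated in that comparison, and counts of 1 and 2 among 7 genes are too few to be read against these shares. At T4, PMA-Ionomycin changed none of the 7, against 13.5% of all genes up-regulated and 9.34% down-regulated. At an unadjusted p below 0.05 it was 1 of the 7, against 30.3% of all genes. LPS changed none of the 7 at T4 (0.0554% of all genes up-regulated and 0.97% down-regulated) and none at T24 (0.637% and 0.582%). At an unadjusted p below 0.05 it was 2 of the 7 at each time, against 13.9% of all genes at T4 and 10.8% at T24, and 2 genes are too few to be read against these shares. From T4 to T24 in mock-stimulated PBMCs, CD247 and ZAP70 were down-regulated and none of the 7 was up-regulated, while 7.41% of all genes were up-regulated and 5.13% down-regulated. No change in the response between T4 and T24 was called for the 7 genes, for LPS (1.71% of all genes higher, 0.239% lower) or for PMA-Ionomycin (14.4% and 8.15%). At an unadjusted p below 0.05 these were 3 of the 7 for LPS, against 16.3% of all genes, and 1 for PMA-Ionomycin, against 30.7%.

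**Figure D1:**
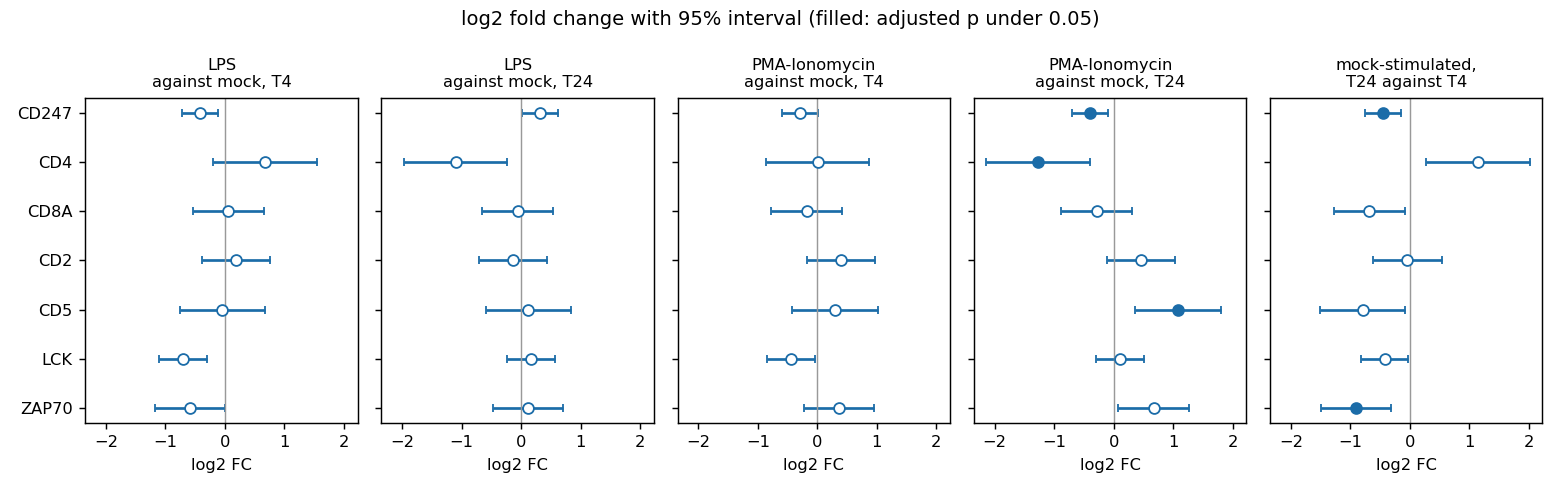
Log2 FC of the 7 genes in the comparisons of each stimulation with mock at T4 and T24 and of mock-stimulated PBMCs at T24 with T4; points are limma estimates, bars their 95% intervals, and filled points have an adjusted p below 0.05. Only CD247, CD4 and CD5 after PMA-Ionomycin at T24 and CD247 and ZAP70 in the time comparison are filled.

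The median log2 FC over the 7 genes was −0.45 from T4 to T24 without stimulation, against −0.06 over all genes (−0.94 and −0.12 with the processed signal), and 6 of the 7 had an unadjusted p below 0.05, against 22.3% of all genes. CD4 alone had a positive log2 FC, which was not called (adjusted p = 0.0816), except with the processed signal (log2 FC 2.90, adjusted p = 0.0374). It has no exact size, since CD4 was not well above background on any mock-stimulated T4 array, and rabbit 5 differed by 2.99 log2 units against 0.12 to 1.18 in the others. CD2 was the gene above that unadjusted threshold. Under PMA-Ionomycin at T24 the median was 0.11 against 0.03 over all genes, and it went to −0.20 with the processed signal and to −0.03 with the deposited table, where the median over all genes went to −0.26 and −0.11. After LPS it was −0.05 at T4 and 0.12 at T24, beside 0.06 and −0.03 over all genes. At T4, quantile normalization gave 0.12 (all genes 0.02). Leaving out dim probes, which left CD4 without a value, gave −0.24 (all genes −0.05).

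**Figure D2:**
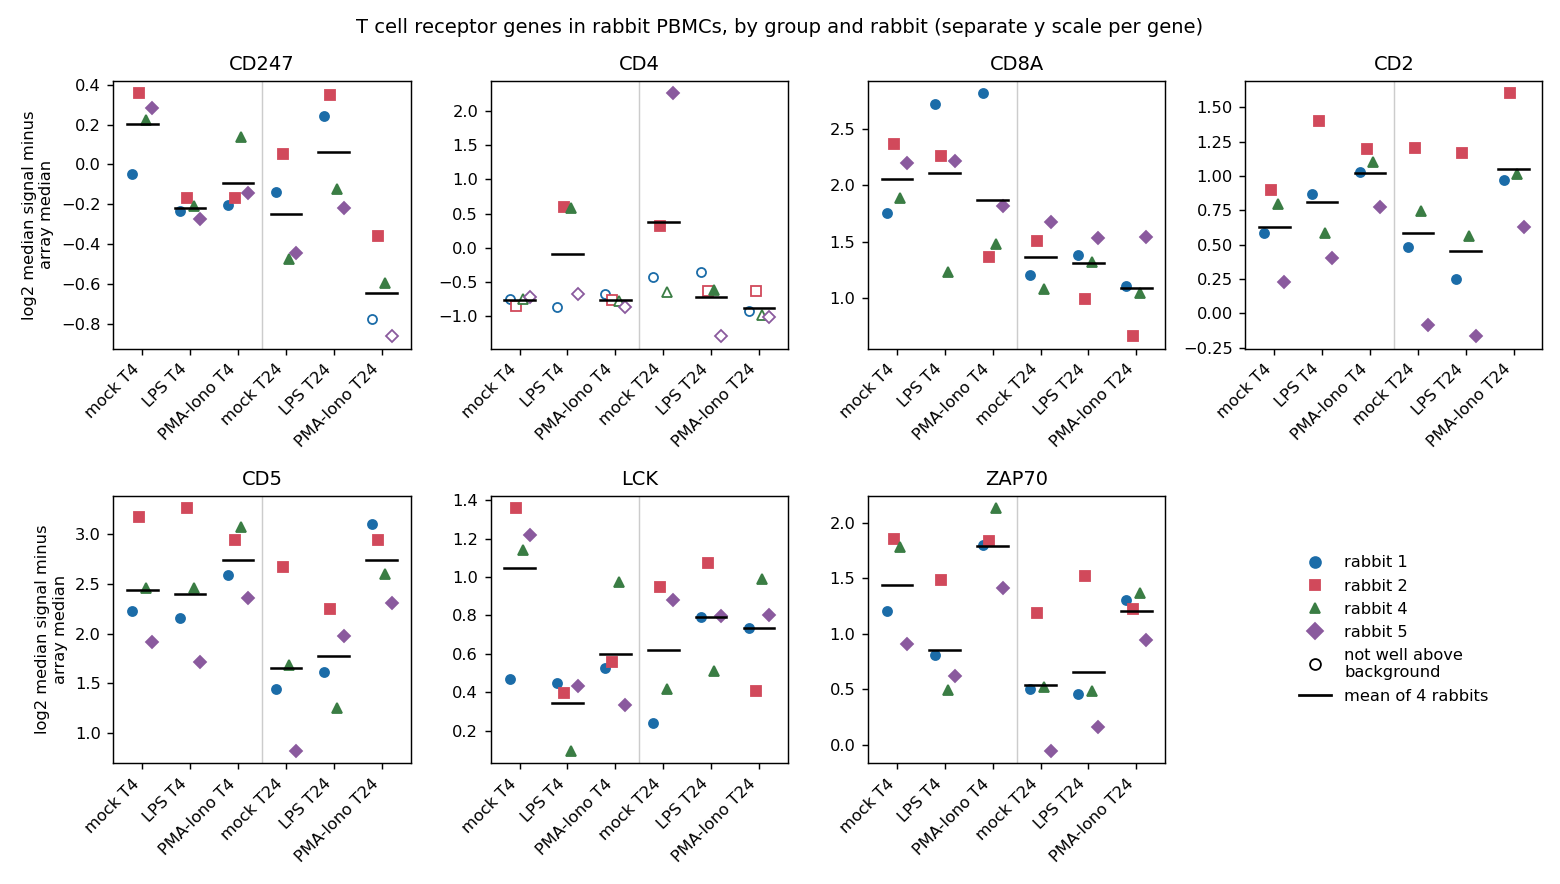
Level of each of the 7 genes (log2 median signal minus the array median, a separate axis per gene) in the 6 groups; each symbol is a rabbit, open symbols were not well above background, and the bar is the mean of 4 rabbits. CD5 after PMA-Ionomycin at T24 lies between 2.30 and 3.10, and CD4 without stimulation at T24 has 1 rabbit at 2.26 far above the others.

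CD247, the zeta chain that carries most of the phosphorylation sites of the receptor complex, was lowest after PMA-Ionomycin at T24. There, rabbits 1, 2, 4 and 5 stood at −0.77, −0.36, −0.59 and −0.86, and the gene was above background on 2 of 4 arrays, against all 4 in every other group. These 2 arrays rest on 3 of the 20 readings that the 5 probes gave in this group, so the size of the difference below is not exact. Without stimulation at T24 the same rabbits stood at −0.14, 0.05, −0.47 and −0.45. Each rabbit was lower after PMA-Ionomycin, although the groups overlapped. The log2 FC was −0.40 (SE 0.15, adjusted p = 0.0387). It was lower on each of the 3 slides (−0.78 to −0.22), and the call was lost without rabbit 1 (log2 FC −0.32, adjusted p = 0.238), rabbit 2 (adjusted p = 0.0667) or rabbit 5 (adjusted p = 0.0966) and with the arrays of the comparison alone (adjusted p = 0.0901).

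At T4, mock-stimulated PBMCs gave CD247 levels of −0.05, 0.36, 0.22 and 0.28. All 4 rabbits therefore had less CD247 signal by T24 without any stimulus, with a log2 FC of −0.45 (SE 0.15, 1.37-fold lower, adjusted p = 0.0424). This call was lost when any of the 4 rabbits was left out, with adjusted p from 0.0534 to 0.265, with the slide as a block (log2 FC −0.45, adjusted p = 0.0603), with the processed signal (adjusted p = 0.0689) and with the arrays of the comparison alone (adjusted p = 0.111). After LPS the levels at T4 were −0.24, −0.17, −0.21 and −0.27, below every mock-stimulated array of that time (log2 FC −0.43, SE 0.15, adjusted p = 0.161). At T24 the LPS levels were 0.24, 0.35, −0.12 and −0.22, each above the mock-stimulated cells of the same rabbit (log2 FC 0.31, SE 0.15, adjusted p = 0.433). The LPS response of CD247 thus had opposite signs at the 2 times in all 4 rabbits, and the test of that difference gave a log2 change of 0.74 (SE 0.21, adjusted p = 0.0629), or an adjusted p of 0.0257 with the rabbit as a block. PMA-Ionomycin at T4 gave −0.20, −0.17, 0.14 and −0.15 (log2 FC −0.30, SE 0.15, adjusted p = 0.173).

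The 5 probes of CD247 spread over 0.11 to 1.49 log2 units on an array, with a median of 0.47. Taken singly, 3 of the 5 were down-regulated by PMA-Ionomycin at T24 and their log2 FC ran from −0.57 to −0.06. A probe added by the study, with a sequence identical to 1 of these 5 and spotted 3 times, was also called lower (adjusted p = 0.0247), with no exact size because it was well above background on 0 of the 4 PMA-Ionomycin arrays. In the time comparison 1 of the 5 was called.

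CD4, the coreceptor of helper T cells, which is also made by monocytes of several species, was well above background on few arrays. None of the 4 mock-stimulated arrays at T4 and none of the PMA-Ionomycin arrays of either time had a CD4 signal well above background. At T24 the mock-stimulated levels of rabbits 1, 2, 4 and 5 were −0.43, 0.33, −0.64 and 2.26, and those after PMA-Ionomycin were −0.92, −0.63, −0.98 and −1.02. Rabbit 5 stood far above the other mock-stimulated rabbits, and the groups overlapped. The gene was down-regulated by PMA-Ionomycin (log2 FC −1.27, SE 0.42, adjusted p = 0.0212), at least 2.38-fold when the level without signal is set at the lowest signal that was well above background. Without the mock-stimulated T24 array of rabbit 5 the log2 FC was −0.64 (adjusted p = 0.109), without rabbit 5 altogether −0.60 (adjusted p = 0.155), and without rabbit 2 −1.37 (adjusted p = 0.073). The call was also lost with the arrays of the comparison alone (adjusted p = 0.0907) and with normexp and quantile normalization (log2 FC −0.88, adjusted p = 0.0629).

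The added CD4 probe, spotted 3 times, was above background on 0 of 24 arrays, with levels from −1.15 to −0.19. On the mock-stimulated arrays at T24 it read −0.77, −0.97, −0.86 and −1.14. A probe without signal can show neither a change nor its absence, so the CD4 values rest on a single spot per array.

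**Figure D3:**
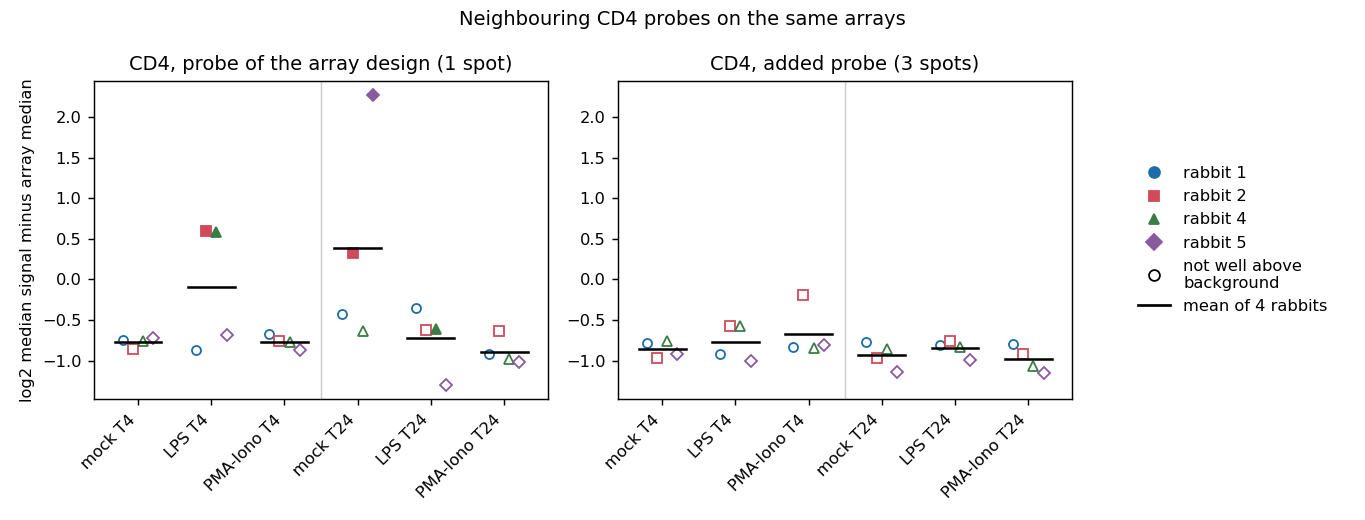
Level of CD4 (log2 median signal minus the array median, same axis range) by the probe of the array design, left, and by the added probe, right, in the 6 groups; each symbol is a rabbit, open symbols were not well above background, and the bar is the mean. All symbols on the right are open and lie between −1.15 and −0.19, while rabbit 5 at T24 without stimulation is at 2.26 on the left.

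CD4 was uneven among the LPS arrays too. At T4 rabbits 2 and 4 stood at 0.59 and 0.58 and rabbits 1 and 5 at −0.86 and −0.68 (log2 FC 0.68, SE 0.42, adjusted p = 0.506), against −0.86 to −0.73 on the mock-stimulated arrays. At T24 the 4 LPS levels were −0.35, −0.63, −0.62 and −1.30 (log2 FC −1.10, SE 0.42, adjusted p = 0.279). This value rested on the mock-stimulated T24 array of rabbit 5, without which the log2 FC was −0.48 (adjusted p = 0.503), and it was −0.28 without rabbit 5 altogether (adjusted p = 0.822).

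CD8A, the coreceptor of cytotoxic T cells, was well above background on every array. Its mock-stimulated levels were 1.75, 2.37, 1.89 and 2.20 at T4 and 1.20, 1.51, 1.08 and 1.68 at T24. Every T24 array was below every T4 array, yet the log2 FC of −0.68 (SE 0.29) was not called (adjusted p = 0.145), and 4 alternatives called it: quantile normalization (−0.81, adjusted p = 0.0375), normexp with quantile normalization (adjusted p = 0.0346), the slide as a block (−0.74, adjusted p = 0.0455) and the arrays of the comparison alone (adjusted p = 0.046). At T24 the levels were 1.38, 0.99, 1.32 and 1.53 after LPS and 1.11, 0.66, 1.04 and 1.54 after PMA-Ionomycin, which overlap the mock-stimulated ones. The log2 FC for PMA-Ionomycin at T24 was −0.28 (95% interval −0.88 to 0.32, adjusted p = 0.571). At T4 the stimulated arrays spread widely, from 1.23 to 2.72 after LPS and from 1.36 to 2.82 after PMA-Ionomycin, with rabbit 1 the highest in both.

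CD5, the receptor that damps the signal and that activated T cells are known to carry more of, was the single up-regulated gene of the 7 after PMA-Ionomycin. At T24, mock-stimulated PBMCs of rabbits 1, 2, 4 and 5 gave 1.44, 2.67, 1.68 and 0.82, and PMA-Ionomycin gave 3.10, 2.94, 2.60 and 2.30. All 4 rabbits were higher after PMA-Ionomycin, by 0.28 (rabbit 2) to 1.66 (rabbit 1) log2 units, and the groups overlapped through rabbit 2, whose unstimulated level was the highest of its group. The log2 FC was 1.08 (SE 0.35, 2.12-fold, adjusted p = 0.0168). It lost its call without rabbit 1 (0.89, adjusted p = 0.174), without rabbit 4 (adjusted p = 0.0679), without the mock-stimulated T24 array of rabbit 5 (0.81, adjusted p = 0.084) and under 3 other scalings (0.75 to 0.95, adjusted p from 0.0638 to 0.0942). Within slides, which hold different rabbits of each group, the difference was 1.85, 1.50 and −0.21.

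At T4 the CD5 levels were 2.23, 3.18, 2.46 and 1.91 in mock-stimulated PBMCs and 2.59, 2.94, 3.07 and 2.36 after PMA-Ionomycin (log2 FC 0.30, SE 0.35, adjusted p = 0.70). The group means after PMA-Ionomycin were the same at T4 and T24 (2.74), while the mock-stimulated mean was 2.44 ± 0.54 (SD, n = 4) at T4 and 1.65 ± 0.77 (SD, n = 4) at T24. CD5 was lower at T24 than at T4 in all 4 rabbits without stimulation, with a log2 FC of −0.79 (SE 0.35, adjusted p = 0.167) that was called with the rabbit as a block (adjusted p = 0.0194). LPS gave 2.15, 3.26, 2.46 and 1.72 at T4 and 1.61, 2.25, 1.26 and 1.97 at T24. The group means after LPS lay within 0.12 log2 units of the mock-stimulated means. Single rabbits differed from their own mock-stimulated cells by −0.43 to 1.15 at T24.

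CD2, the adhesion receptor that binds CD58 or CD48 on the partner cell, was higher after PMA-Ionomycin in each rabbit at both times, but the difference was not called. The mock-stimulated levels were 0.58, 0.90, 0.79 and 0.23 at T4 and those after PMA-Ionomycin 1.03, 1.19, 1.10 and 0.78 (log2 FC 0.40, SE 0.28, adjusted p = 0.403). At T24 they were 0.48, 1.20, 0.74 and −0.08 without stimulation and 0.97, 1.60, 1.01 and 0.63 with it (log2 FC 0.47, SE 0.28, adjusted p = 0.238). Rabbit 2 was the highest and rabbit 5 the lowest in each of these groups. With the rabbit as a block, which takes such standing differences out, CD2 was called at T4 (adjusted p = 0.0325) and at T24 (adjusted p = 0.00847). The LPS levels were 0.86, 1.40, 0.59 and 0.40 at T4 and 0.25, 1.17, 0.56 and −0.17 at T24, with an adjusted p of 0.794 and 0.973. The 5 CD2 probes gave log2 FC between 0.43 and 0.48 for PMA-Ionomycin at T24.

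LCK, the Src-family kinase that starts the signal, had its highest group mean in mock-stimulated PBMCs at T4 and its lowest after LPS at T4. The mock-stimulated levels were 0.47, 1.36, 1.14 and 1.22, and the LPS levels 0.45, 0.40, 0.09 and 0.43. The groups did not overlap, with rabbit 1 at nearly the same level in both. The log2 FC was −0.70 (SE 0.19, 1.63-fold lower) with an adjusted p of 0.0759, and it was called with the rabbit as a block (adjusted p = 0.0403) and with the slide as a block (log2 FC −0.78, adjusted p = 0.0401). Within the 3 slides it was −0.82, −0.71 and −0.92. PMA-Ionomycin gave 0.53, 0.56, 0.97 and 0.33 at T4 (log2 FC −0.45, SE 0.19, adjusted p = 0.111), and this was called without rabbit 1 (log2 FC −0.62, adjusted p = 0.0456) and with the slide as a block (−0.52, adjusted p = 0.0409). At T24 the mock, LPS and PMA-Ionomycin means were 0.62 ± 0.35, 0.79 ± 0.23 and 0.73 ± 0.24 (SD, n = 4), which lie within their spread.

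ZAP70, the kinase that binds the phosphorylated receptor chains, was down-regulated with time in unstimulated culture. Mock-stimulated levels of rabbits 1, 2, 4 and 5 were 1.21, 1.85, 1.78 and 0.90 at T4 and 0.50, 1.19, 0.52 and −0.06 at T24. All 4 rabbits were lower at T24, by 0.66 to 1.26 log2 units, and the groups overlapped. The log2 FC was −0.90 (SE 0.29, 1.86-fold lower, adjusted p = 0.0392), and it lay between −0.99 and −0.66 within the 3 slides. The call was lost without rabbit 1 (adjusted p = 0.16), rabbit 4 (adjusted p = 0.249), rabbit 5 (adjusted p = 0.0543) or the T24 array of rabbit 5 alone (adjusted p = 0.141), with the slide as a block (adjusted p = 0.0561) and with the arrays of the comparison alone (adjusted p = 0.0951).

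After PMA-Ionomycin, ZAP70 stood at 1.80, 1.83, 2.13 and 1.42 at T4 and at 1.31, 1.22, 1.37 and 0.94 at T24. At T24 each rabbit was above its own mock-stimulated cells, rabbit 2 by 0.03 log2 units and the others by 0.81 to 1.00. The log2 FC of 0.67 (SE 0.29) had an adjusted p of 0.0769, and was called with the rabbit as a block (adjusted p = 0.00653) and without rabbit 2 (log2 FC 0.88, adjusted p = 0.0076). LPS gave 0.80, 1.49, 0.49 and 0.62 at T4 (log2 FC −0.59, SE 0.29, adjusted p = 0.365) and 0.45, 1.52, 0.49 and 0.16 at T24 (log2 FC 0.12, adjusted p = 0.981).

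Ordering the 6 group means of each gene gave 35 pairs of neighbours, and in 1 of them the means differed by more than the larger of the 2 SDs. This pair was CD247 without stimulation at T24 (−0.25 ± 0.25) and after PMA-Ionomycin at T24 (−0.65 ± 0.22; SD, n = 4). CD5 and CD2 had their 2 highest means after PMA-Ionomycin, and CD8A had its 3 lowest means at T24.

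The receptor's own variable chains were not among the genes chosen by name, but 37 probes carry a T cell receptor chain in their description: 1 alpha, 26 beta, 4 delta, 3 gamma and 3 with no chain stated. They were picked out after the files had been seen. Of these, the alpha probe, 1 beta probe and 1 delta probe were well above background on all 24 arrays, and 10 beta probes, 1 gamma probe and 1 delta probe on none. PMA-Ionomycin at T24 up-regulated the alpha probe and the delta pre-chain probe, 2 of the 37, where 22.4% of all single probes were up-regulated.

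The alpha probe read 0.60, 0.97, 0.68 and 1.37 in mock-stimulated PBMCs of rabbits 1, 2, 4 and 5 at T24 and 2.26, 0.84, 2.46 and 2.64 after PMA-Ionomycin. Rabbits 1, 4 and 5 were far above their unstimulated cells and rabbit 2 was slightly below. The log2 FC was 1.15 (SE 0.37, 2.21-fold, adjusted p = 0.0179), and it lost its call without rabbit 1 (0.97, adjusted p = 0.163), rabbit 4 (0.94, adjusted p = 0.126) or rabbit 5 (1.11, adjusted p = 0.0565) and with the processed signal (adjusted p = 0.0517). At T4 the same pattern was present without a call, with 0.92, 1.26, 1.45 and 1.81 in mock-stimulated PBMCs and 1.79, 0.67, 2.81 and 2.47 after PMA-Ionomycin. The delta pre-chain probe read 1.63, −0.66, 1.15 and 1.03 without stimulation at T24 and 3.85, 1.06, 2.72 and 2.97 after PMA-Ionomycin. All 4 rabbits were higher (log2 FC 1.86, SE 0.55, 3.64-fold, adjusted p = 0.0095), rabbit 2 from the lowest start, and the call was lost with the processed signal (adjusted p = 0.0583). The other 3 delta probes were called higher after PMA-Ionomycin at T4 (log2 FC 0.43 to 0.68; 13.8% of all single probes higher) but none was above background on more than 2 arrays. Of the 26 beta probes none was called after PMA-Ionomycin, and 1 was lower from T4 to T24 without stimulation (log2 FC −0.40, adjusted p = 0.0224; 5.32% of single probes lower). LPS changed none of the 37.

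**Figure D4:**
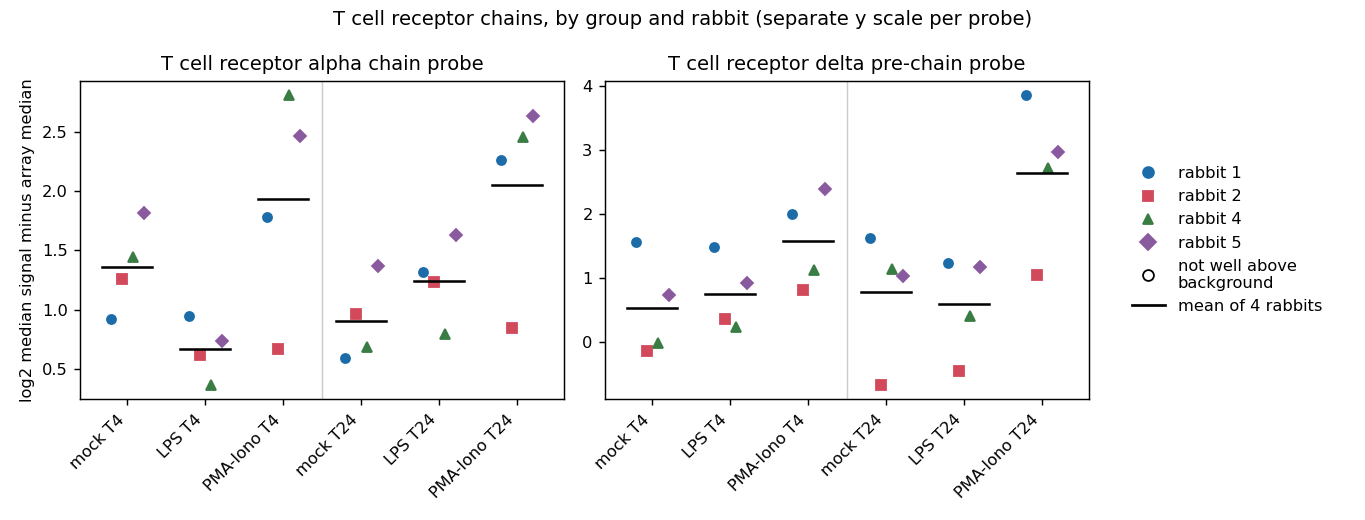
Level (log2 median signal minus the array median, separate axes) of the T cell receptor alpha chain probe, left, and the delta pre-chain probe, right, in the 6 groups; each symbol is a rabbit and the bar is the mean. After PMA-Ionomycin at T24 rabbits 1, 4 and 5 read 2.26 to 2.64 for alpha and rabbit 2 reads 0.84.

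Other genes of the pathway were called in every comparison. Of a list of 46 adaptors, kinases, phosphatases and exchange factors, 35 were measured. PMA-Ionomycin at T24 up-regulated 3 and down-regulated 16 of them, where 22.1% of all genes were up-regulated and 11.5% down-regulated, with a median log2 FC of −0.39 against 0.03 over all genes. SH2D2A, the T cell specific adaptor that binds LCK, was up-regulated 4.03-fold (log2 FC 2.01, SE 0.19, adjusted p = 1.29e-08), from 0.56 ± 0.34 to 2.57 ± 0.22 (SD, n = 4). THEMIS, an adaptor of developing T cells, was not above background without stimulation and was at least 1.77-fold higher, and PTPN22, a phosphatase that acts on LCK, was 1.65-fold higher (log2 FC 0.72, SE 0.25, adjusted p = 0.0255). The PTPN22 call was lost under 7 of 16 alternatives, such as normexp with quantile normalization (log2 FC 0.36, adjusted p = 0.364).

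Among the 16 that were down-regulated at T24, LCP2 (SLP-76), the adaptor that ZAP70 phosphorylates, had the largest log2 FC (−2.57, SE 0.28, 5.94-fold lower, adjusted p = 1.04e-07). LAX1, a negative regulator of antigen receptor signalling, was lower by 3.89-fold (−1.96, SE 0.31), and VAV1, an exchange factor for Rac, by 3.14-fold (−1.65, SE 0.22). The groups of these 3 genes did not overlap. LAT, GRB2, BCL10, MALT1 and CSK were also down-regulated, with log2 FC of −0.81, −1.29, −0.83, −1.13 and −1.23. Several of these genes, such as LCP2, VAV1, CSK and GRB2, are also expressed in monocytes or B cells, whose markers were lower in the same comparison, and the part of those cells was not tested.

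At T4, PMA-Ionomycin up-regulated 4 and down-regulated 11 of the 35, where 13.5% of all genes were up-regulated and 9.34% down-regulated, with a median log2 FC of −0.19 against 0.05 over all genes. Monocyte, B cell and platelet markers were lower in this comparison too, and their part was not tested. CBLB, a ubiquitin ligase that limits T cell activation, was 3.44-fold higher (1.78, SE 0.20), SH2D2A 3.02-fold (1.60, SE 0.19) and TEC, a non-receptor tyrosine kinase, 2.54-fold (1.35, SE 0.40, adjusted p = 0.0149). The TEC call was lost without rabbit 1 (adjusted p = 0.073) or rabbit 4 (log2 FC 1.09, adjusted p = 0.148). CSK, the kinase that holds LCK inactive, was 4.16-fold lower (−2.06, SE 0.25), MALT1, which links the receptor to NF-κB, 3.28-fold (−1.71, SE 0.24) and LCP2 2.83-fold (−1.50, SE 0.28). At T24 the mean of CBLB was −0.02 ± 0.13 after PMA-Ionomycin and −0.07 ± 0.18 without stimulation (SD, n = 4), and its response differed between the times by −1.73 (SE 0.28, adjusted p = 5.4e-05). NCK1, an adaptor of the cytoskeleton (−0.99, SE 0.26, adjusted p = 0.0057), and PAG1, which anchors CSK (−0.54, SE 0.18, adjusted p = 0.037), also had a lower response at T24 than at T4. THEMIS had a higher one (adjusted p = 0.0474), with no exact size because it was not above background without stimulation at T24.

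**Figure D5:**
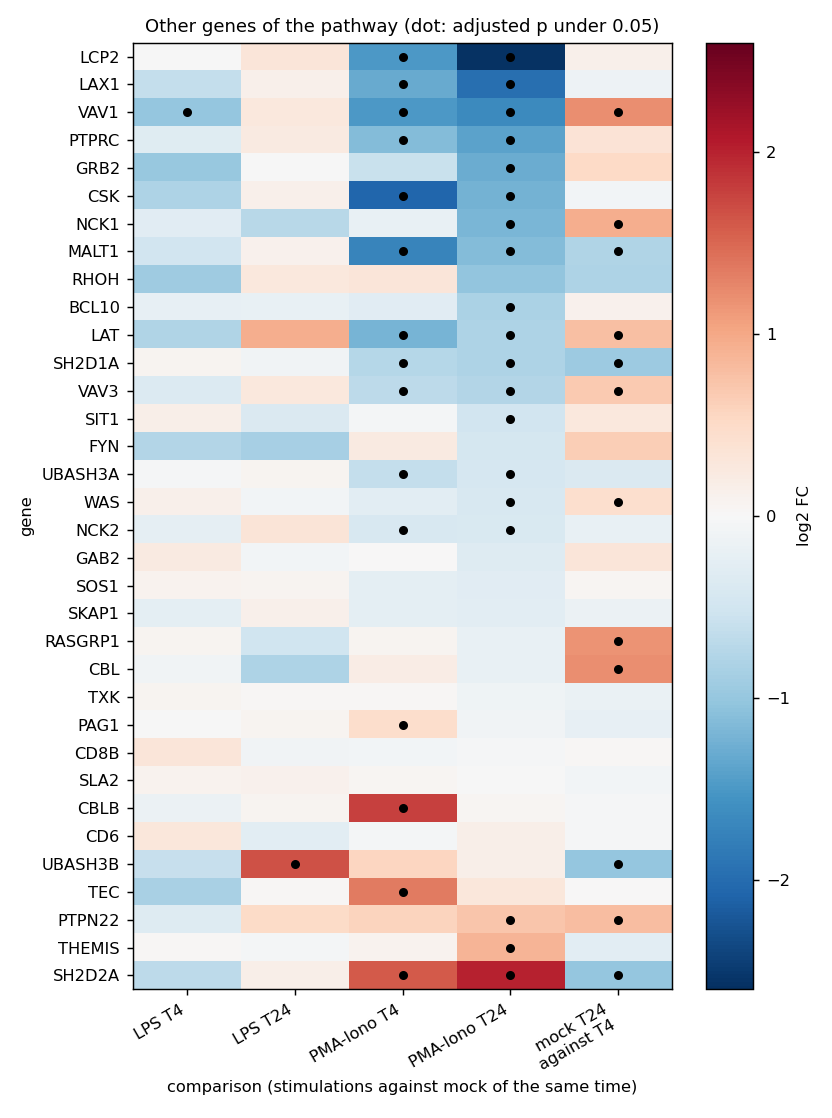
Log2 FC (colour) of 34 measured genes of the pathway list, ordered by PMA-Ionomycin against mock at T24, in each comparison; dots mark an adjusted p below 0.05. SH2D2A (2.01) and LCP2 (−2.57) stand at the ends of the PMA-Ionomycin T24 column, and the LPS columns hold 1 dot each.

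LPS changed few genes of the list. At T4 it down-regulated VAV1 alone (log2 FC −1.01, SE 0.22, 2.02-fold lower, adjusted p = 0.0384), a call that was lost under 9 of 16 alternatives, where 0.97% of all genes were down-regulated. CD14 (−1.55) and CSF1R (−1.44), 2 of the 9 monocyte genes, were down-regulated there too, and their part was not tested. At T24 it up-regulated UBASH3B, a phosphatase that acts on ZAP70 and SYK, 3.14-fold (1.65, SE 0.32, adjusted p = 0.0061), a call that was lost without rabbit 2 (1.74, adjusted p = 0.083). MPO and CAMP of the neutrophil list were down-regulated there too. The summed level of that list was not lower, at 12.2 to 12.6 against 8.89 to 12.3 without stimulation. The part of these cells was not tested. The LPS response was higher at T24 than at T4 for UBASH3B (2.26, SE 0.45, adjusted p = 0.0139), LAT (1.71, SE 0.36, adjusted p = 0.0186) and VAV1 (1.30, SE 0.31, adjusted p = 0.0321), and lower for none (1.71% of all genes higher, 0.239% lower). These calls were lost under 2, 4 and 6 of 16 alternatives, and leaving out rabbit 2, or leaving out rabbit 4, left none of the 35 genes called. The median log2 FC of the 35 was −0.20 at T4 and 0.06 at T24.

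In unstimulated culture from T4 to T24, 8 of the 35 were up-regulated and 4 down-regulated, where 7.41% of all genes were up-regulated and 5.13% down-regulated, with a median log2 FC of 0.01 against −0.06 over all genes. Among the markers, 5 of 9 monocyte and 4 of 5 neutrophil genes were up-regulated here and 3 of 4 platelet genes down-regulated. The part of those cells was not tested. VAV1 rose 2.32-fold (1.22, SE 0.22), CBL, a ubiquitin ligase that acts on the receptor complex, 2.30-fold (1.20, SE 0.26, adjusted p = 0.0024) and RASGRP1, the exchange factor for Ras in T cells, 2.24-fold (1.16, SE 0.21). SH2D2A fell by 1.01 on the log2 scale (SE 0.19), UBASH3B by 1.00 (SE 0.32, adjusted p = 0.0405) and SH2D1A, the adaptor SAP of T and natural killer cells, by 0.95 (SE 0.17). The UBASH3B call was lost under 5 of 16 alternatives, such as without rabbit 2 (log2 FC −0.78, adjusted p = 0.314).

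The 5 named genes whose 6 group means came closest to the mean pattern of the 5 receptor genes that were above background on every array were TAB2, NKAPD1, ARCN1, PDE12 and LARP6. Their root mean square distance from that pattern was 0.09 (TAB2) to 0.11 (LARP6) log2 units, over 4774 candidate genes whose median distance was 0.51. The receptor genes themselves lay farther from it, from 0.19 (CD2) to 0.64 (CD4). The pattern was highest after PMA-Ionomycin at T4 (0.31) and lowest without stimulation at T24 (−0.34), relative to the mean over the groups.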

How the data were processed

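Each array file held median and mean spot intensity as deposited by the authors, who hybridized 1 labelled RNA per array and read it with Agilent Feature Extraction 10.7.3.1 on a design placed on oryCun2. The deposited log2 table, 42089 rows, held each spot's median signal as log2, centred on the array mean with controls included (column medians −1.11 to −0.811), and served as an alternative. Here log2 median signals of 61657 non-control spots were centred on the array median, outlier spots left out, and spots and probes averaged per gene. Probes took a symbol through their accession (11506), a gene number (8929, CD8A and ZAP70 among them), the gene name (66) or the study's gene list (458); 21130 stayed unnamed. Probes added by the study for CD4 and CD247 were kept apart.

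Group means of 24 arrays were fitted with limma 3.58.1 in R 4.3.3, with empirical Bayes and Benjamini-Hochberg adjustment over 28872 genes, without a block, as in the study's methods. On simulated data, 97% to 98.5% of 200 genes changed by a log2 FC of 2 were recovered, with 4.83% to 8.45% of calls false. Same-numbered samples come from the same rabbit, so the numbers pair them: deviations from group means had a median correlation of 0.228 over 60 same-rabbit pairs and −0.0745 over 180 others. Of the pathway list, the 3 largest rises and the 3 largest falls per comparison were named among genes called and changed the same way in 4 of 4 rabbits. LAT, GRB2, BCL10, MALT1 and CSK after PMA-Ionomycin at T24 were named in addition, outside this rule. The plot of this list leaves out 1 measured gene, which is not reported here. The genes and lists were chosen with earlier results of these data known. The 17 alternatives comprise other scalings, filters, blocks and left-out rabbits or arrays. The number of arrays limits the precision.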

Additional observations from a re-analysis of the deposited data

Results flagged for a closer look

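LCK after LPS at T4 was picked out because a single rabbit stood apart: rabbit 4 was at 0.09 and the others between 0.40 and 0.45, a gap of 0.845 of the range and above Dixon's critical value. It was the only such case among 54 sets of 4 arrays, where chance alone gives about 1 in 20. The response to LPS differed between T24 and T4, by the interaction term in limma, for UBASH3B (2.26), LAT (1.71) and VAV1 (1.30), and none of these was called without rabbit 2 or without rabbit 4. The response to PMA-Ionomycin differed between the times for THEMIS (0.79, measured against a group not above background, so that its size is not exact), CBLB (−1.73), NCK1 (−0.99) and PAG1 (−0.54), of which PAG1 lost its call under 7 of 16 alternatives and THEMIS under 5 of 15.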

How the results depend on the processing

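With the rabbit as a replicate block, which uses the pairing of samples by animal, the count of receptor genes called went from 0 to 1 for LPS at T4, from 0 to 1 for PMA-Ionomycin at T4, from 3 to 5 for PMA-Ionomycin at T24 and from 0 to 1 for the change in the LPS response, and the block altered no other count by more than 1.5 times. With the slide as a block the counts were 1, 1 and 1 for LPS at T4, PMA-Ionomycin at T4 and the LPS change, and 1 in place of 2 for the time comparison, which was CD8A, with CD247 and ZAP70 both lost. Leaving out each rabbit gave 1 to 2 for PMA-Ionomycin at T24, 0 to 1 for PMA-Ionomycin at T4 and 0 to 1 for the time comparison. Normexp with quantile normalization gave 1 for PMA-Ionomycin at T24. For the time comparison the arrays of the comparison alone gave 1, again CD8A in place of CD247 and ZAP70, and single probes gave 1. Quantile normalization, normexp or leaving out dim probes gave 1 for the LPS change, and the processed signal gave 1 for the PMA-Ionomycin change. Leaving out the mock-stimulated T24 array of rabbit 5, chosen after seeing the data, gave 1 for PMA-Ionomycin at T24 and 0 for the time comparison. The cause of these shifts was not tested. No called value reversed its sign. Among the alternative values of the 5 called changes, 50 kept their call and 29 lost it. With the processed signal the median log2 FC of all genes lay between −0.30 (the change in the LPS response) and 0.22 (LPS at T4). Of the pathway list, the count called for PMA-Ionomycin lay between 13 and 17 at T4 and between 15 and 22 at T24 over 16 alternatives, applied to this list after seeing the data. It lay between 0 and 3 for LPS at either time, between 6 and 13 for the time comparison, between 0 and 5 for the change in the LPS response and between 2 and 8 for that in the PMA-Ionomycin response. In PMA-Ionomycin-treated PBMCs, CD4 was not well above background on any array, which leaves a bound only.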
